A study of Bos taurus with 9 samples.

Results

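Narrow peaks of H3K27ac in rumen epithelial tissue of Holstein calves were described. Before weaning they shared no base with promoter-type signals, and after weaning they had no H3K27ac peak at the same place. The peaks were chosen by their width, by the absence of other signals and by the loss itself. A peak was included when it was narrower than 1000 bp in the H3K27ac list before weaning and shared no base with a peak of H3K9ac before weaning, RNA polymerase II (RNA pol II) before weaning or H3K27ac after weaning. In total, 48758 of the 74249 H3K27ac peaks before weaning met this rule, out of 130580 peaks in all 8 lists. They are called lost peaks below, and the 11736 peaks that met the same conditions but did touch an H3K27ac peak after weaning are called kept narrow peaks. "Lost" describes the absence of a called peak only.

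The data came from chromatin immunoprecipitation followed by sequencing (ChIP-seq) at 2 time points. The groups before and after weaning each held 1 library for H3K9ac, H3K27ac, RNA pol II and H3K9me3, and an input library served as background for peak calling. The labels give the breed, the tissue and the time point, and they do not give the age, number or pooling of the calves. With 1 library per target and time point there was no replicate error, so differences between time points were not tested and intervals cover counting error only. Both H3K27ac libraries were run on lane 2. The H3K27ac list after weaning was shorter, with 30446 peaks. The lists hold no read depth or enrichment, and the part of these in the loss was not tested. With only as many of the widest H3K27ac peaks before weaning as there were peaks after it, 12536 peaks met the rule. The share lost among narrow H3K27ac-only peaks was then 66.8%, in place of 80.6%. This setting only removes narrower peaks before weaning, and no remaining peak changes between lost and kept. The lower share is therefore that of wider peaks and does not show what equal depth would give. Time points are those of the labels. For RNA pol II the text of the study places the shorter list at the other time point, and exchanging both RNA pol II lists gave 48944 lost peaks in place of 48758. Whether the labels of another list are exchanged could not be told, and if those of H3K27ac were, the peaks called lost here would be gained. Gene models, promoters and DNA sequence of the assembly of these lists were not used here, so the peaks are given by position on UMD3.1.1 and not by gene.

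H3K27ac is the acetylation of lysine 27 on histone H3. It is written by the acetyltransferases p300 and CBP, removed by histone deacetylases, and found at active enhancers and active promoters. H3K9ac and RNA pol II are strongest at active promoters, whereas H3K9me3 marks repressed chromatin and repeats. Acetylation without H3K9ac or polymerase is therefore often read as enhancer-like, and enhancers of a tissue tend to lie in clusters around the genes they serve. Weaning is the period in which the rumen epithelium thickens, keratinizes and starts to take up the short-chain fatty acids of microbial fermentation, among them butyrate, which inhibits histone deacetylases. The label "enhancer-like" could be checked here only through the absence of H3K9ac and RNA pol II, which the rule itself imposes. Distance from transcription start sites was not analysed here. Absence means no shared base: 12.8% of the lost peaks lay within 1 kb of an H3K9ac peak before weaning, and 29.9% within 5 kb. The RNA pol II list before weaning held 2056 peaks, and touching one removed 377 peaks.

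Of the 74249 H3K27ac peaks before weaning, 68723 were narrower than 1000 bp, 60871 of those touched no H3K9ac peak, and 60494 of those touched no RNA pol II peak. The last step left the 48758 lost peaks, which were 80.6% of the 60494 peaks. For comparison, 72.1% of all H3K27ac peaks before weaning had no peak after weaning, and 76.3% of those narrower than 1000 bp. The lost peaks made up 91.1% of the 53550 H3K27ac peaks that disappeared from the list (95% CI 90.8 to 91.3). Another 3662 of these (6.84%) were narrow but touched H3K9ac or RNA pol II, and 1130 (2.11%) were 1000 bp or wider. Together the lost peaks covered 16.8 Mb, which was 48.0% of the bases under H3K27ac before weaning, while all 20699 kept H3K27ac peaks covered 14.9 Mb (42.7%). These counts follow from the rule and are given as a description.

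At the edges of the rule the peaks were continuous with their neighbours. There were 70 lost peaks within 20 bp below the limit of 1000 bp, and 66 peaks within 20 bp above it that met all other conditions. The widest lost peaks, 4 that were 1 bp under the limit, lay at chr10:81886971-81887969, chr15:41403024-41404022, chr22:50688158-50689156 and chr27:25671231-25672229. The narrowest excluded peaks, of 1000 bp, were at chr10:45300994-45301993 and chr13:43859875-43860874. On the side of the H3K27ac list after weaning, 740 lost peaks had a peak after weaning within 100 bp, with the smallest gap at 1 bp for 5 of them, and 83 kept narrow peaks shared 20 bp or fewer with theirs.

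The lost peaks were short. Their median width was 289 bp (95% CI 287 to 290), with quartiles at 231 and 405 bp. The median was 473 bp when only peaks wider than their list's median were used and 522 bp with equal numbers of the widest peaks, both of which remove narrow peaks. The kept narrow peaks had a median of 419 bp (413 to 425) and quartiles at 289 and 609 bp, and all kept H3K27ac peaks had a median of 593 bp. A width of 200 bp, the lowest in the lists, was found for 7.36% of the lost peaks (7.13 to 7.60) and 2.68% of the kept narrow peaks (2.40 to 2.98). At the other end, 14.6% of the lost peaks (14.3 to 14.9) and 37.8% of the kept narrow peaks (36.9 to 38.7) reached 500 bp. The lists hold no peak height that could be set beside the width.

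The share of narrow H3K27ac-only peaks that was lost fell at each step of width. Width and loss both entered the rule, and a wider peak can meet a peak after weaning more easily when 1 shared bp counts, so this is a description. The share was 92.0% for peaks of 200 bp (91.1 to 92.8) and 88.5% for wider peaks under 300 bp (88.1 to 88.9). Peaks from 300 to under 400 bp were lost in 81.8% of cases (81.1 to 82.5), and peaks from 400 to under 500 bp in 75.0% (73.9 to 75.9). The share was 66.7% from 500 to under 700 bp (65.6 to 67.8) and 52.7% from 700 to under 1000 bp (51.1 to 54.2).

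The share also differed with the surroundings before weaning. Peaks with no other H3K27ac peak within 50 kb were lost in 85.2% of cases (83.5 to 86.8). With 1 to 4 such neighbours the share was 81.7% (81.1 to 82.4), with 5 to 9 it was 81.4% (80.8 to 82.0), with 10 to 19 it was 80.4% (79.9 to 81.0) and with 20 or more it was 77.9% (77.2 to 78.6). Within width classes the narrow and middle peaks kept this order and the widest did not. Among peaks from 500 to under 1000 bp, 60.7% were lost with fewer than 5 neighbours (58.8 to 62.6), 62.3% with 5 to 19 (61.1 to 63.5) and 61.0% with 20 or more (59.1 to 62.9), and these intervals overlapped. Among peaks from 200 to under 300 bp the corresponding shares were 90.7% (89.99 to 91.3), 88.8% (88.4 to 89.3) and 87.0% (86.1 to 87.9). From 300 to under 500 bp they were 80.0% (78.8 to 81.1), 79.8% (79.1 to 80.6) and 77.0% (75.7 to 78.3), with the last below the other two.

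**Figure D1:**
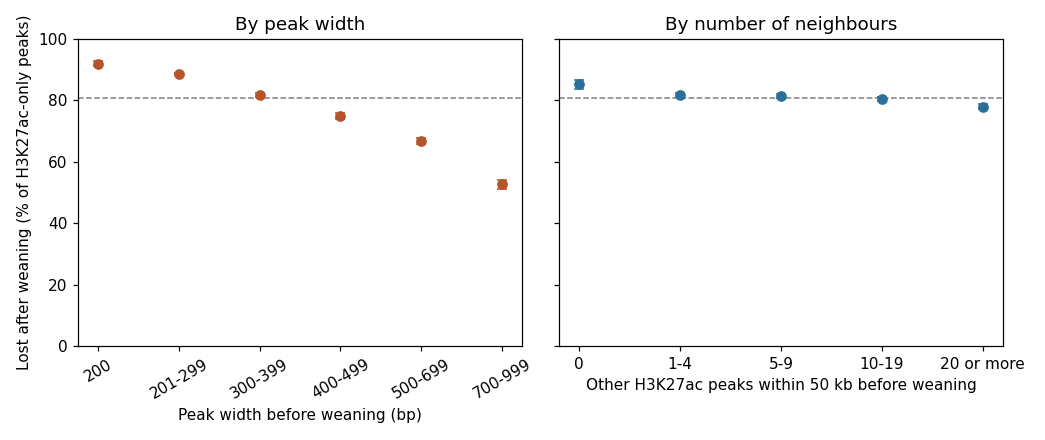
Share of narrow H3K27ac-only peaks with no H3K27ac peak after weaning (y axis, %), by peak width before weaning in bp (left) and by the number of other H3K27ac peaks within 50 kb before weaning (right). Points are shares, bars are 95% Wilson intervals and the dashed line is the share over all such peaks, 80.6%. The points fall from 92.0% to 52.7% with width and from 85.2% to 77.9% with the number of neighbours.

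Distance to promoter-type signal before weaning also went with small differences. Peaks within 1 kb of an H3K9ac peak, but not touching it, were lost in 76.8% of cases (75.8 to 77.7). The share was 81.2% at 1 to 5 kb (80.4 to 82.0), 80.8% at 5 to 50 kb (80.3 to 81.3), 81.2% at 50 to 500 kb (80.6 to 81.8) and 85.3% beyond 500 kb (83.7 to 86.8). The 3 middle classes did not differ beyond their intervals. For RNA pol II the share was 75.2% within 1 kb (72.3 to 77.8), 84.4% at 1 to 5 kb (82.6 to 86.1) and between 79.6% and 81.9% in the 3 classes farther away. In the nearest class 703 of 935 peaks were lost. The class at 50 to 500 kb from RNA pol II, at 79.6% (79.1 to 80.1), was also below the share of all peaks, and no steady trend with distance from RNA pol II was seen.

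The lost peaks lay close to one another. The median gap from a lost peak to the nearest other lost peak was 1147 bp (1117 to 1175), with quartiles at 266 and 6434 bp. Within 500 bp, 35.6% had another lost peak (35.2 to 36.1), within 5 kb 71.9% (71.5 to 72.3) and within 12500 bp 82.5% (82.1 to 82.8). Because the list of kept narrow peaks was shorter, gaps within the lists cannot be compared directly, so both were measured against the same list of all H3K27ac peaks before weaning. The nearest other H3K27ac peak was at a median of 491 bp from a lost peak (479 to 501) and 297 bp from a kept narrow peak (285 to 311). The number of other H3K27ac peaks within 50 kb had a median of 10 (quartiles 5 and 17) around lost peaks and 11 (5 and 18) around kept narrow peaks. Before weaning, lost peaks were therefore set slightly farther from the nearest acetylated neighbour and among nearly as many neighbours.

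One gap length recurred. No gap under 51 bp occurred, and 1256 lost peaks (2.58%) had their nearest lost neighbour at exactly 200 bp, against 102 at the next most common value. A gap of 200 bp was the most common value in all 8 lists. The gap equals the lowest peak width, and it was found 1848 times between neighbours in the H3K27ac list before weaning. H3K27ac peaks within 1 kb were also merged in both lists before the rule was applied. This left 19927 lost regions, with a median gap of 12951 bp to the nearest other one. Merged regions that reached 1000 bp, or that touched a peak the rule excludes, were left out. The median gap was 1782 bp with a width limit of 500 bp, 4243 bp among peaks wider than their list's median and 10554 bp with equal numbers of the widest peaks.

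**Figure D2:**
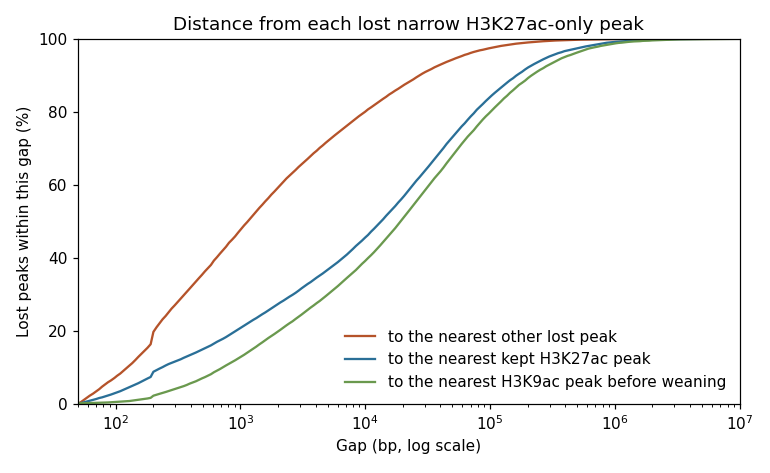
Cumulative share of the 48758 lost peaks (y axis, %) within a given gap (x axis, bp, log scale) of the nearest other lost peak, the nearest kept H3K27ac peak and the nearest H3K9ac peak before weaning. The curves cross 50% at medians of 1147, 13426 and 19224 bp, and a step is visible at 200 bp.

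Lost peaks were linked into chains wherever neighbours were at most 12500 bp apart, a distance in common use for joining enhancers into clusters. This gave 18304 chains. Single peaks made up 8546 of them and held 17.5% of the lost peaks. The 2579 chains with 5 or more members held 21387 lost peaks, or 43.9% (43.4 to 44.3), over a median extent of 19433 bp. No such share is given for kept narrow peaks or for all H3K27ac peaks, of which 65.7% were lost peaks. The chaining can therefore not be called particular to lost peaks. Chains of 10 or more numbered 635 and held 18.6% of the lost peaks, and 79 chains had 20 or more. With peaks merged within 1 kb, the share in chains of 5 or more was 6.09%. Close neighbours then count once, and merged regions that reached 1000 bp or touched a peak the rule excludes were left out. The share was 18.0% among peaks wider than their list's median and 9.23% with equal numbers of the widest H3K27ac peaks. Both of these settings leave fewer peaks.

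**Figure D3:**
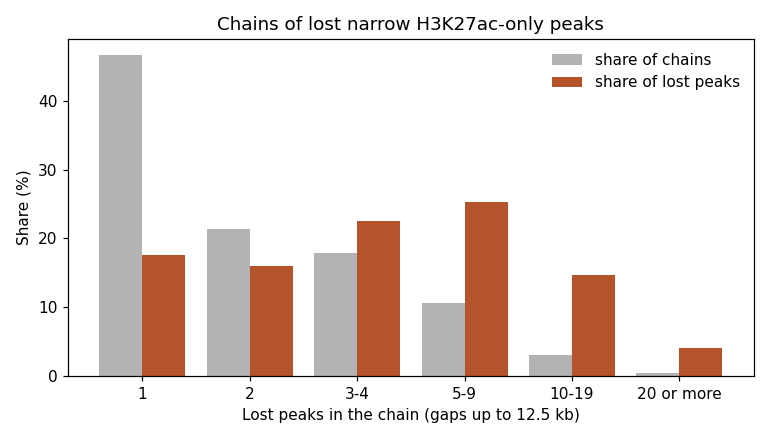
Share of chains (grey) and share of lost peaks (brown) by the number of lost peaks in a chain, where neighbours were linked across gaps of up to 12500 bp; both y values are in %. Chains of 1 are 46.7% of chains and hold 17.5% of the peaks, and chains of 20 or more are 0.432% of chains and hold 3.98%.

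The chain with the most members was at chr15:24949957-25040741, with 41 lost peaks over 90.8 kb. Its members had a median width of 336 bp, and the widest was at chr15:25039448-25040441. Of 56 H3K27ac peaks before weaning in this interval, 3 were kept, none of which was a narrow H3K27ac-only peak. The interval also held 15 H3K9ac peaks before weaning and none after weaning, and 4 H3K27ac peaks after weaning. The loss of H3K27ac there follows from how the chain was chosen. The H3K9ac list as a whole went from 14384 peaks before weaning to 2127 after it, so fewer H3K9ac peaks in an interval are not particular to it.

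The next 4 chains kept more of their acetylation. The chain at chr29:29990333-30118407 had 37 lost peaks over 128.1 kb, with 9 of 49 H3K27ac peaks kept. At chr20:4477437-4578229 there were 36 lost peaks and 9 of 55 H3K27ac peaks were kept, and at chr19:23185104-23299870 there were also 36 and 15 of 55 were kept. The last of these, at chr11:25648508-25767896, had 34 lost peaks and kept 14 of 57. H3K9ac peaks in these 4 intervals numbered 6, 16, 14 and 19 before weaning and 1, 1, 2 and 5 after weaning, in the same order, beside the fall of the whole H3K9ac list given above. None of the 5 intervals held an RNA pol II or H3K9me3 peak at either time point. The share of narrow H3K27ac-only peaks lost was 85.0% to 86.0% in these 4 chains. In the chain on chromosome 15 all 41 were lost, and over all such peaks the share was 80.6%. Chains begin and end on lost peaks and were ranked by their number of lost peaks. Shares inside them are therefore raised by how they were chosen.

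Chains were built from peaks that touch no H3K27ac peak after weaning, so the absence of such peaks inside them is largely set by the rule and is given as a description. Of the 2579 chains with 5 or more members, 1032 (40.0%, 38.1 to 41.9) had no H3K27ac peak after weaning inside their extent, and these held 7351 lost peaks (15.1% of all). In 728 chains (28.2%) there was neither a kept H3K27ac peak nor an H3K9ac peak before weaning. The largest chain with no H3K27ac after weaning was at chr13:59121275-59187891, where 29 of the 31 H3K27ac peaks were lost peaks by the rule and 1 H3K9ac peak stood before weaning. The next, at chr15:64471823-64520745, had 25 lost peaks over 48.9 kb and no other H3K27ac peak. The one after it, at chr16:42161156-42195108, had 23 lost peaks over 34.0 kb and again no other. These last 2 chains held no H3K9ac peak at either time point and no RNA pol II peak before weaning. Their members ran from 200 to 879 bp and from 212 to 754 bp, with medians of 330 and 341 bp, above the median of 289 bp for all lost peaks.

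The distance to H3K27ac that was kept varied widely. The median gap from a lost peak to the nearest kept H3K27ac peak of any kind was 13426 bp (13028 to 13792), with quartiles at 1573 and 55840 bp. A kept peak lay within 1 kb of 20.8% of the lost peaks (20.4 to 21.1), within 5 kb of 36.7% (36.3 to 37.1) and within 12500 bp of 48.9% (48.5 to 49.4). The share within 5 kb was 18.7% with peaks merged within 1 kb, 22.7% when a gap of up to 1 kb counted as a touch and 24.4% when a touch needed a reciprocal overlap of 50%. No kept peak was found within 50 kb of 13115 lost peaks, or 26.9% (26.5 to 27.3). For kept narrow peaks, the nearest other kept peak was at a median of 1647 bp (1525 to 1785), with 62.1% within 5 kb (61.2 to 62.9). Kept narrow peaks thus lay nearer to kept H3K27ac than lost peaks did. Both sets were divided by the same list after weaning, so this is a description.

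Lost peaks beside a kept peak were somewhat wider. Within 1 kb of a kept peak the median width was 305 bp (302 to 309) and 4.84% were 200 bp wide. At 1 to 5 kb the median was 287 bp (283 to 290), and it was 284 or 285 bp in the 3 classes from 5 kb outward, where 8.10% to 8.76% were 200 bp wide. Lost peaks more than 100 kb from any kept peak had a median of 1144 bp to the nearest other lost peak. This was 1621 bp within 1 kb of a kept peak, 793 bp at 1 to 5 kb, 1065 bp at 5 to 50 kb and 1054 bp at 50 to 100 kb, with no steady trend.

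All H3K27ac peaks before weaning, lost or not, were then linked across gaps of up to 12500 bp into 20556 domains. A domain with at least 1 kept peak held 27009 lost peaks, or 55.4% (55.0 to 55.8). Domains that consisted of lost peaks alone numbered 9304 and held 17433 of them, or 35.8% (35.3 to 36.2), and 5387 of these domains were a single peak. Domains with H3K9ac or RNA pol II but no kept peak held 7.80%, and those with a lost peak of 1000 bp or more but neither signal held 1.05%. Inside domains with a kept peak, 67.7% of the lost peaks (67.2 to 68.3) lay outside the outermost kept peaks and 32.3% (31.7 to 32.8) lay between them. This share is partly set by the number of kept peaks, since 9353 of these lost peaks (34.6%) were in domains with 1 kept peak, where none can lie between. In domains with 2 or more kept peaks, 50.7% of the lost peaks (49.9 to 51.4) lay outside.

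Members of these domain types differed little in width. The median was 294 bp in domains with a kept peak (292 to 295), 279 bp in domains of lost peaks alone (277 to 281) and 307 bp where H3K9ac or RNA pol II was present without a kept peak (299 to 312). The 5387 solitary lost peaks had a median of 264 bp (261 to 267), and 11.9% of them were 200 bp wide. The largest domains of lost peaks alone were the chains of 25 and 23 peaks described above and another at chr5:68821763-68848452, with 17 peaks over 26.7 kb.

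At the other extreme, 1586 lost peaks (3.25%) had no other H3K27ac peak within 50 kb before weaning. The most remote was at chr6:78374780-78375079, 300 bp wide, 4223 kb from the next H3K27ac peak. It was followed by chr17:24418113-24418803 (691 bp, 3815 kb), chr16:17245777-17246054 (278 bp, 2254 kb), chr11:53184720-53185062 (343 bp, 2063 kb) and chr12:7487264-7487482 (219 bp, 1985 kb). Among these 5, none touched H3K9ac or H3K9me3 after weaning. The widest lost peaks more than 50 kb from any kept peak were at chr16:4025841-4026837 (997 bp), chr15:20672984-20673979 (996 bp) and chr12:22456478-22457472 (995 bp).

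Lost peaks occurred on all 30 chromosomes in the H3K27ac list, from 710 on chromosome 27 to 2727 on chromosome 19. Their density was highest at 42.6 per Mb, on chromosome 19. Chromosomes 25 and 18 came next with 32.5 and 31.0 per Mb. X had 5.91 per Mb, and chromosomes 6 and 9 had 10.2 and 11.6, and the median over autosomes was 20.1. Lost peaks were 61.7% to 74.0% of the H3K27ac list on each autosome and 80.1% on X.

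The share lost among narrow H3K27ac-only peaks was narrower in range, from 78.1% on chromosome 18 (76.5 to 79.6) to 88.9% on chromosome 27 (86.5 to 90.9), around a median of 80.2%. Chromosome X followed with 87.8% (85.6 to 89.7), and the next was chromosome 4 with 83.8% (82.0 to 85.5). The intervals of 6 chromosomes lay above the share of 80.6% for all peaks (1, 4, 12, 20, 27 and X) and those of 5 lay below it (5, 7, 10, 11 and 18). Peaks on a chromosome are not independent, so these intervals understate the error. Without X the share was 80.5%, and without chromosomes 27 and X it was 80.4%.

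Chromosomes 27 and X were picked out after their values were seen, as those with the highest shares lost, and are described by width without a test. Both were above the other 28 chromosomes pooled at each width. On chromosome 27 the shares lost were 94.0% for peaks of 200 to under 300 bp (91.3 to 95.9), 88.8% for 300 to under 500 bp (84.2 to 92.2) and 73.6% for 500 to under 1000 bp (65.7 to 80.2). On X they were 96.3% (94.0 to 97.8), 89.6% (86.0 to 92.4) and 70.3% (64.2 to 75.8). On the pooled chromosomes they were 88.8% (88.4 to 89.2), 79.0% (78.4 to 79.5) and 61.3% (60.4 to 62.2). The median gap to a kept peak was 35244 bp on chromosome 27, 36044 bp on chromosome 6 and 91966 bp on X, against 13906 bp as the median over chromosomes.

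Chromosome X had few lost peaks, with shorter gaps at close range and longer gaps beyond. Its lost peaks had a median gap of 596 bp to the nearest other lost peak (499 to 812), compared with 1156 bp on the autosomes (1128 to 1184), and 47.1% had one within 500 bp (43.8 to 50.4), compared with 35.4% (35.0 to 35.9). Within 12500 bp, however, 74.5% had one on X (71.5 to 77.3) and 82.6% on the autosomes (82.3 to 83.0), and the upper quartile of the gap was 12960 bp against 6378 bp. On X 16.4% of them were in chains of 5 or more, below the 28.8% to 56.5% of the autosomes. The largest chain on X had 11 members, and 27.8% of the lost peaks on X were in chains of exactly 2, against 15.8% on the autosomes. The nearest kept peak was at a median of 91966 bp (78026 to 110991), compared with 13033 bp on the autosomes (12680 to 13435). The lost peaks on X were also wider, with a median of 316 bp (307 to 330) against 288 bp (287 to 290). The sex of the animals was not given, so the number of X copies behind these peaks is not known.

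**Figure D4:**
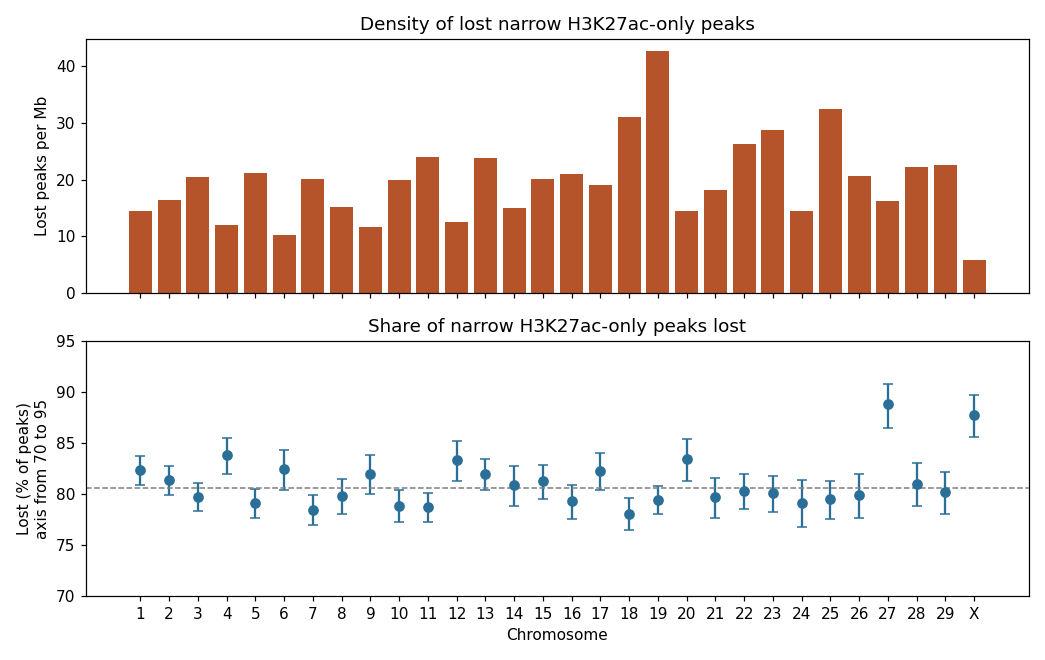
Lost peaks per Mb of each chromosome (top, bars from 0) and share of narrow H3K27ac-only peaks that were lost (bottom, %, axis from 70 to 95) for chromosomes 1 to 29 and X. Bars on the points are 95% Wilson intervals and the dashed line is the share over all chromosomes, 80.6%; chromosome 19 has the highest density (42.6 per Mb), and chromosomes 27 (88.9%) and X (87.8%) have the highest shares.

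Along the autosomes, lost peaks were denser toward the distal end, where positions are highest. With each autosome cut into 10 equal segments, the last segment held 15.2% of them and the first 7.33%. All H3K27ac peaks before weaning had 14.7% and 7.24% there. The share lost was nearly flat along the chromosome, from 78.3% in segment 7 (77.2 to 79.4) to 82.5% in segment 5 (81.5 to 83.5).

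In bins of 1 Mb, lost peaks were found in 2241 of 2675 bins (83.8%), with a median of 11 per bin and quartiles of 2 and 27. The 426 fullest bins, 15.9% of all, held 50% of the lost peaks. No such value is given for all H3K27ac peaks, so this can not be called particular to lost peaks. The fullest bin was the megabase from 80000001 on chromosome 10, with 137 lost peaks among 240 H3K27ac peaks. It was followed by the megabases from 23000001 and 56000001 on chromosome 19 (132 and 130), from 25000001 on chromosome 11 (127) and from 53000001 on chromosome 18 (121). The share lost in these 5 bins was 74.3% to 86.1%. Over the 1076 bins with at least 20 narrow H3K27ac-only peaks, the share lost had a median of 81.8% and quartiles of 73.6% and 88.5%.

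Among the 1076 bins with at least 20 narrow H3K27ac-only peaks, those at the ends of the range were picked out after their values were seen. In 26 of these 1076 bins every narrow H3K27ac-only peak was lost, and bins with fewer such peaks were not counted. The one with most peaks was the megabase from 52000001 on chromosome 8, where all 45 were lost. In the megabase from 89000001 on chromosome 3, all 39 were lost and none of the 41 H3K27ac peaks was kept. At the low end of the 1076 bins, 7 of 22 were lost (31.8%) in the megabase from 99000001 on chromosome 8. In that from 64000001 on chromosome 11, 7 of 21 were lost (33.3%). The longest run of consecutive H3K27ac peaks that were all lost peaks had 35 peaks over 1247 kb, at chr17:2886829-4133658.

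Lists that the rule did not use were then compared with the same positions. H3K9ac after weaning touched 167 of the 48758 lost peaks, or 0.343% (0.294 to 0.398), and 328 of the 11736 kept narrow peaks, or 2.79% (2.51 to 3.11). Over all H3K27ac peaks before weaning the share was 2.01%, which includes peaks that already carried H3K9ac before weaning. The intervals of lost and kept narrow peaks were apart at each width. Neighbouring peaks are not independent, so these intervals understate the error, and the difference was not tested. The shares were 0.266% (0.210 to 0.336) against 2.08% (1.64 to 2.64) at 200 to under 300 bp, 0.467% (0.371 to 0.586) against 2.69% (2.24 to 3.23) at 300 to under 500 bp, and 0.351% (0.238 to 0.517) against 3.41% (2.91 to 3.98) at 500 to under 1000 bp. Acetylation of lysine 9 after weaning was thus rarer where acetylation of lysine 27 was not called, in a library of its own. Both lists were called against the same input.

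The 167 lost peaks with H3K9ac after weaning are places where one acetyl mark was called before weaning and the other after it. They were spread over 29 chromosomes, with none on X, and had a median width of 332 bp. Within 5 kb of a kept H3K27ac peak lay 78 of them (46.7%), compared with 36.7% of all lost peaks. The widest was at chr15:8606370-8607365 (996 bp), around an H3K9ac peak of 209 bp at 8606710 to 8606918. The next were at chr11:25452833-25453733 (901 bp) and chr23:27994810-27995705 (896 bp), around H3K9ac peaks of 206 and 295 bp. Lost peaks within 50 kb of a kept peak were touched in 0.389% to 0.438% of cases in the 3 nearer distance classes, and those beyond 50 kb in 0.131% (0.0634 to 0.270) and 0.167% (0.0979 to 0.286).

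Heterochromatin lists rarely met the lost peaks. H3K9me3 before weaning touched 10 of them, or 0.0205% (0.0111 to 0.0378), and 2 kept narrow peaks, or 0.0170% (0.00467 to 0.0621). H3K9me3 after weaning touched 31 lost peaks, or 0.0636% (0.0448 to 0.0902), and 2 kept narrow peaks, again 0.0170%. The intervals of lost and kept narrow peaks overlapped in both lists, and the difference between them was not tested. Over all H3K27ac peaks before weaning the shares were 0.0741% and 0.106%, with wide peaks and those touching H3K9ac or RNA pol II included. In all, 40 lost peaks touched H3K9me3 at either time point (0.0820%, 0.0603 to 0.112) and 1 did so at both. The share was 0.249% when a gap of up to 1 kb counted as a touch, 0.125% with peaks merged within 1 kb and 0.0408% with a reciprocal overlap of 50%. The libraries for H3K9me3 were run on lane 2 before and lane 1 after weaning, and the effect of the lane cannot be separated from that of weaning.

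The 31 lost peaks with H3K9me3 after weaning lay on 17 chromosomes, with 7 of them on chromosome 7. That chromosome held 4.64% of all lost peaks, and the spread of the H3K9me3 list over chromosomes is not given here. The lost peaks with H3K9me3 after weaning are described further by position. The median gap of these 31 to a kept H3K27ac peak was 56601 bp, longer than the 13426 bp of all lost peaks. The widest were at chr5:98826120-98826893 (774 bp), chr6:26787359-26787995 (637 bp) and chr13:55184502-55185106 (605 bp), and none of these carried H3K9me3 before weaning. The 10 with H3K9me3 before weaning had a median gap of 94546 bp to a kept peak. RNA pol II after weaning touched 1 lost peak, at chr4:104375263-104375847 (585 bp), and none of the kept narrow peaks, where a floor of 3 counts allows a share of up to 0.0256% and the Wilson interval reaches 0.0327%. The share over all H3K27ac peaks before weaning was 0.0768%, in a list of 738 RNA pol II peaks. All H3K27ac peaks include wide ones and ones that touched H3K9ac or RNA pol II before weaning.

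**Figure D5:**
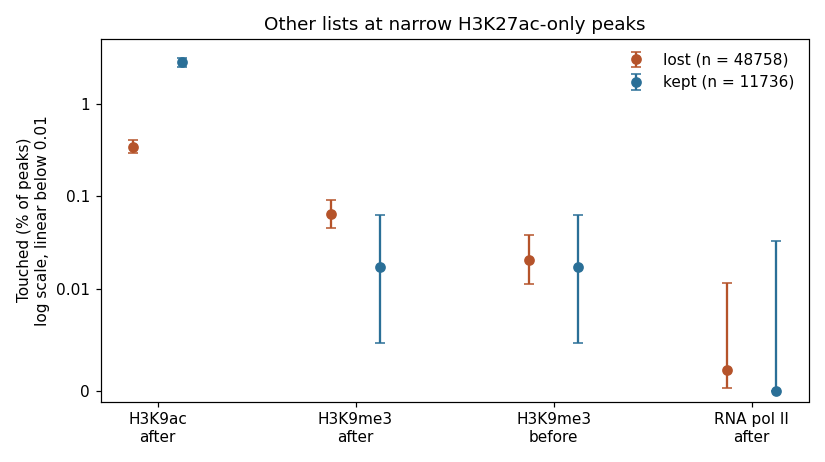
Share of lost peaks (brown, n = 48758) and kept narrow peaks (blue, n = 11736) touched by peaks of the 4 lists that did not enter the rule (y axis, %, log scale and linear below 0.01). Points are shares and bars are 95% Wilson intervals; H3K9ac after weaning touches 0.343% of lost and 2.79% of kept narrow peaks, and the other 3 pairs of intervals overlap.

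H3K27ac peaks that were gained after weaning, that is, peaks that touched no H3K27ac peak before weaning, also lay farther from lost peaks. The nearest gained peak was at a median of 86995 bp from a lost peak (85375 to 88815) and 29575 bp from a kept narrow peak (27983 to 31314). Within 5 kb of a gained peak lay 8.78% of the lost peaks (8.53 to 9.03) and 25.2% of the kept narrow peaks (24.5 to 26.0). The list after weaning also entered the rule, so this contrast is a description. For 224 lost peaks the gained peak was within 100 bp, next to the place of the loss.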

How the data were processed

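ChIP-seq peak lists of rumen epithelial tissue from Holstein calves were used, 1 list per target (H3K9ac, H3K27ac, RNA pol II, H3K9me3) and time point, with groups taken from the labels. The authors removed reads that failed the Illumina filter, aligned reads to UMD3.1.1 with BWA, kept unique alignments with fewer than 2 mismatches, and called peaks with MACS2 against the rumen input. The submitters' processing notes also name Trim Galore 0.4.1. The deposited values are positions, other than counts: chromosome, start and end in bp, with no score, and the read depth is not held in them.

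Positions were read as 1-based with both ends included. Touching meant at least 1 shared bp. Gaps count the bases between peaks. Chromosome extent was the highest peak end over the lists. Shares have 95% Wilson intervals and medians order-statistic intervals. With 1 library per group no test was run. Functions were checked on simulated lists. The members, regions and distances were chosen with earlier results of these data known; named regions followed a rule on chain size, isolation, width and contact with other lists, and bins of 1 Mb were picked afterwards. Python 3.11.15, numpy 2.4.6 and pandas 2.3.3 were used. The gene table at hand was of another assembly and was not used.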

Additional observations from a re-analysis of the deposited data

How the results depend on the processing

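Over 7 other settings and 2 chosen after seeing the data (starts counted from 0, RNA pol II lists exchanged), 21 of 58 recomputed values stayed within their counting interval, or within 1.5 times for the number of peaks, and 37 moved. The number of lost peaks was 19927 with H3K27ac peaks within 1 kb merged, 20600 with peaks wider than their list's median and 12536 with equal numbers of the widest H3K27ac peaks, which leave fewer peaks by construction, and between 35772 and 56428 otherwise. In the order width limit of 500 bp, reciprocal overlap of 50%, gap of up to 1 kb as a touch, merging, peaks over the median and equal numbers, the share lost was 85.1%, 87.0%, 68.8%, 82.8%, 83.2% and 66.8%. In that order the median width was 269, 307, 284, 284, 473 and 522 bp and the median gap to another lost peak 1782, 818, 1242, 12951, 4243 and 10554 bp. The share in chains of 5 or more was 37.0%, 49.3%, 34.0%, 6.09%, 18.0% and 9.23%, and 44.4% on chromosomes 1 to 29. The share within 5 kb of a kept peak was 36.1%, 24.4%, 22.7%, 18.7%, 26.8% and 34.2%. The share touching H3K9me3 was 0.0408% with reciprocal overlap, 0.249% with the 1 kb gap and 0.125% after merging. The cause of these shifts was not tested beyond what each setting removes. No paired analysis was possible because each group holds 1 library. The lists hold no depth, and its part in the loss was not tested. Exchanging the RNA pol II lists moved no value past its interval.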
